A study of Mus musculus with 6 samples.

Results

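The Krüppel-like factors other than Klf1 were read here by 38 probe sets of 10 genes, out of 45037 probe sets of 18193 named genes on the array. They were all the probe sets that the array annotation assigns to a single symbol among Klf2, Klf3, Klf4, Klf5, Klf6, Klf7, Klf9, Klf10, Klf12 and Klf13, whatever their level, and no filter on low values was applied. RNA came from CD71+Ter119+ cells, that is, marrow cells bearing the transferrin receptor and an erythroid surface antigen, of female mice aged 6 weeks. The 3 knockout mice were Bcl11a fl/fl EpoR-Cre+, with a floxed Bcl11a and Cre driven from the erythropoietin receptor gene, which is active in erythroid cells, and the 3 control mice were Bcl11a +/+. Each mouse gave 1 Affymetrix array. The labels give Cre to the knockout mice alone, and no other agent or allele was named for either group. Effects of Cre, of its EpoR allele or of strain background, which the labels do not name, therefore cannot be told apart from that of Bcl11a.

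Krüppel-like factors are transcription factors whose tandem zinc fingers, at the end of the protein, bind GC-rich DNA and CACCC boxes. Klf1 is the erythroid member that drives adult beta globin, and several relatives occupy the same kind of site, either as activators or as repressors. Klf2, Klf4, Klf5, Klf6 and Klf7 are known mainly as activators, Klf3 and Klf12 recruit the CtBP corepressor, and Klf9, Klf10 and Klf13 recruit the Sin3 corepressor. BCL11A, the product of the floxed gene, is itself a zinc finger repressor, known to bind the motif TGACCA.

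RefSeq start sites of the mouse build GRCm38.p6 were held for 8 of the 10 genes, all but Klf5 and Klf10. The 250 bases upstream of the start are shown for the activators Klf6, Klf4, Klf2 and Klf7, whose probe sets all lay lower in the knockout, and for Klf3, whose probe sets did not. Capitals mark the motifs CACCC and TGACCA, searched on both strands, so that GGGTG and TGGTCA are capitalised as well.
Klf6, chr13:5861239-5861488, + strand: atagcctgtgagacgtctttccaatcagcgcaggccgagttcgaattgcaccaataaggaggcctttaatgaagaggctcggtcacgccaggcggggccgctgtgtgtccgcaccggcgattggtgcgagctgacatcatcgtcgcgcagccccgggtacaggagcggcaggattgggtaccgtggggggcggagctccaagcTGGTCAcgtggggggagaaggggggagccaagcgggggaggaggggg
Klf4, chr4:55532476-55532725, - strand: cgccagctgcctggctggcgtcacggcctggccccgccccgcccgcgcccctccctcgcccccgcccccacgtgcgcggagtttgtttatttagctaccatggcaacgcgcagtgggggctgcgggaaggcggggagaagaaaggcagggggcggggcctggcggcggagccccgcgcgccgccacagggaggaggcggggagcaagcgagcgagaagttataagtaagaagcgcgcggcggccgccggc
Klf2, chr8:72318812-72319061, + strand: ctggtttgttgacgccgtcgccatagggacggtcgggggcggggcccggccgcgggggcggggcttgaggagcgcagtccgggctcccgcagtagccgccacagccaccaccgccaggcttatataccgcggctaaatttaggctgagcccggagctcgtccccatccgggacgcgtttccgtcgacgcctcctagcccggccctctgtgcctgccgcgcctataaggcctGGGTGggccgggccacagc
Klf7, chr1:64121390-64121639, - strand: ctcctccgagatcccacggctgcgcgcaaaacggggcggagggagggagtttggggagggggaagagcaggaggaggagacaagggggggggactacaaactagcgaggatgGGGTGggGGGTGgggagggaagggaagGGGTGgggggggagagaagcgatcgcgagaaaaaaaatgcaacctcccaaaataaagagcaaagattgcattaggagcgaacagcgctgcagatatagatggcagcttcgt
Klf3, chr5:64803271-64803520, + strand: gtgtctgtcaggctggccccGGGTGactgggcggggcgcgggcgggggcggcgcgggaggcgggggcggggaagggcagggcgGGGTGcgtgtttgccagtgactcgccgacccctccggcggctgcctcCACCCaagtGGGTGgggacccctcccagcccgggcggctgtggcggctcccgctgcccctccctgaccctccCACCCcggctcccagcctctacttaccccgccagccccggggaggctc
Klf6 held 1 match to TGACCA, on the other strand, 47 to 42 bases before the start, and the other 4 windows shown held none. Of all 32851 promoter windows of this length, 11.4% held TGACCA. Klf12, not shown, had 1 match as well. Klf3 held 5 matches to CACCC, Klf7 held 3, Klf2 held 1, and Klf6 and Klf4 held none, while 52.0% of all windows held at least 1. The Klf6 window also held 4 matches to CCAAT, a motif found in 33.8% of windows. These matches describe letters in the window and do not show binding.

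The activator members stood lower in the knockout, and the corepressor-recruiting members lay on either side of 0. All 15 probe sets of Klf2, Klf4, Klf5, Klf6 and Klf7 had a log2 change below 0, from -0.89 to -0.15 with a median of -0.34, where the median over all probe sets was -0.006 and 51.2% of them lay below 0. Of the 15, 1 fell past the threshold (limma, adjusted p under 0.05 over all probe sets), 14 did not pass and none rose. Across the array 0.00666% of probe sets fell and 0.14% rose by this rule. In 11 of the 15 every knockout mouse lay below every control mouse, as did 8.91% of all probe sets. Of the 12 probe sets of Klf3 and Klf12, 9 lay above 0 and 3 below, with a median of 0.08, and of the 11 of Klf9, Klf10 and Klf13, 5 lay above and 6 below. The 5 above were all of Klf9, and all 3 of Klf13 lay below. None of those 23 passed in either direction. Among the 23, every knockout mouse lay above every control mouse in 1 of Klf3, and below in 1 of Klf13. Of all probe sets, 10.6% and 8.91% did so. Of the 15 activator probe sets 9 lay below 0 with an unadjusted p under 0.05, as did 5.21% of all probe sets, and 7.21% of all lay above 0 by that rule. None of the other 23 had an unadjusted p under 0.05. Probe sets of 1 gene read the same RNA and are not independent, and amounts of RNA cannot be compared between probe sets. The members and their grouping by role were chosen with earlier results of these data known. The counts by group are therefore a description.

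How many members passed depended on how variances were moderated. With an intensity trend and robust moderation, 7 of the 38 fell and none rose, and across the array 0.531% of probe sets fell and 2.68% rose. The 7 were 3 probe sets of Klf6, both of Klf4, that of Klf2 and 1 of Klf7. In the fit without the trend, no gene had more than 1 probe set past the threshold.

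**Figure D1:**
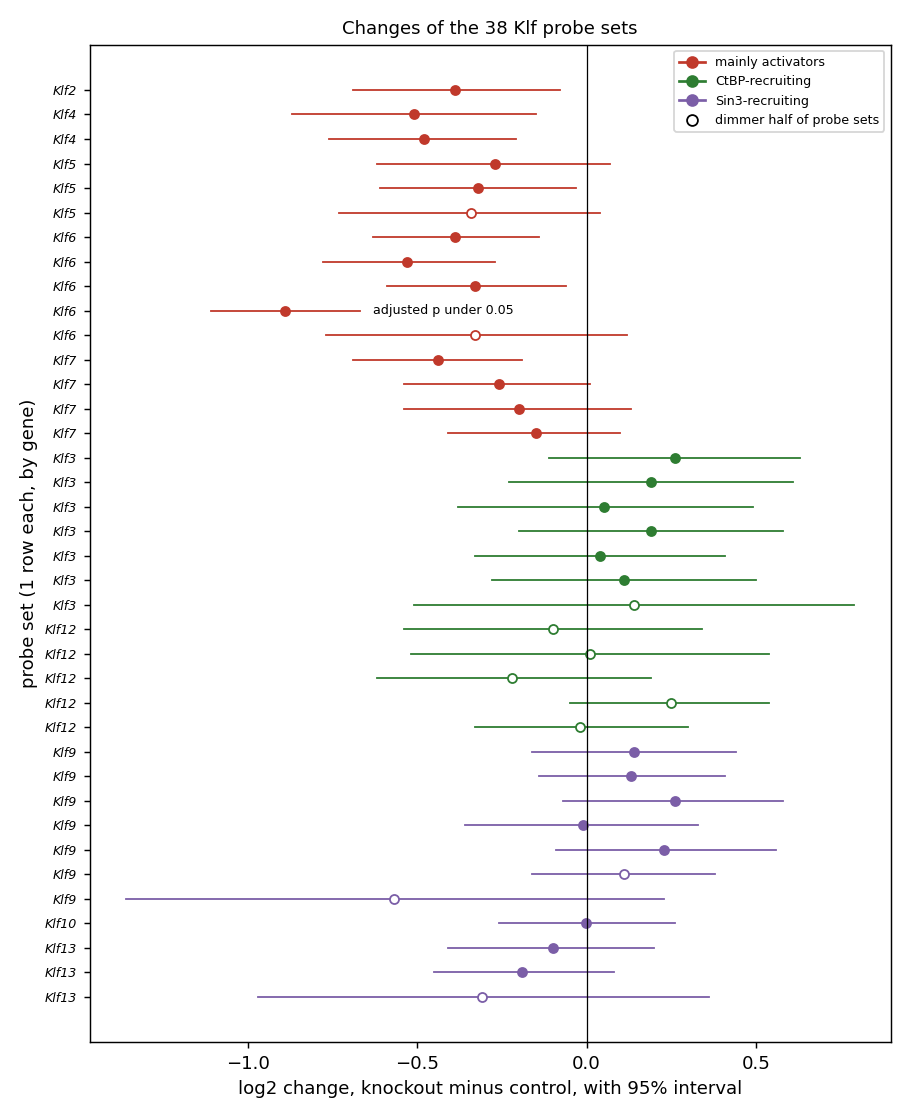
Log2 change, knockout minus control, of each of the 38 probe sets (1 row each, brightest first within a gene) with its 95% interval from the fit, coloured by the known role of the factor. Every activator probe set lies below 0, from -0.89 to -0.15, and 1 of Klf6 passed the test, while those of Klf3 all lie between 0.04 and 0.26.

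Klf6, a widely expressed activator that is needed for blood formation in the mouse yolk sac, had 5 probe sets. Probe set 1418280_at had intensities of 1132, 1166 and 1192 in the knockout mice, against 2139.7, 2242 and 2129.7 in the control mice. The groups were far apart and each was tight, with means of 1163 ± 30.0 in the knockout and 2171 ± 62.3 in the controls (SD, n = 3), a knockout level 0.536 times that of the controls. The log2 change was -0.89, its 95% interval -1.11 to -0.67 (limma, adjusted p = 0.0361), and it was the only member probe set that passed. Its log2 change stayed between -0.91 and -0.87 when single mice were left out, but the call did not survive the loss of any of the 6 (adjusted p = 0.124 to 0.232), nor a pseudocount of 1 (adjusted p = 0.0827).

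The brightest Klf6 probe set, 1433508_at, had 2182, 2222 and 2231 in the knockout mice, against 2928, 3108 and 2669 in the control mice, with a change of -0.39 ± 0.10 log2 units (SE, limma adjusted p = 0.237). Probe set 1447448_s_at had 1587, 1687 and 1878 in the knockout mice, against 2547, 2480.1 and 2410.1 in the control mice, a change of -0.53 ± 0.11 (adjusted p = 0.163). Probe set 1427742_a_at had 1718, 1921 and 1636 in the knockout mice, against 2325, 2061 and 2235 in the control mice, a change of -0.33 ± 0.11 (adjusted p = 0.326). In all 3 the knockout mice lay below all control mice, by a smaller margin than in 1418280_at. The fifth, 1459718_x_at, was dim, with 60.5, 43.5 and 43.7 in the knockout mice, against 48.6, 75.6 and 75.2 in the control mice, and the groups overlapped.

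The probe sets of Klf6 thus read unequal changes within the same arrays. The log2 difference of 1418280_at minus 1433508_at was -0.94, -0.92 and -0.90 in the knockout mice, against -0.45, -0.47 and -0.32 in the control mice, so the first moved 0.50 further down. Against 1447448_s_at it moved 0.36 further and against 1427742_a_at 0.56 further, and in each of these comparisons the groups did not overlap. The probe set was singled out for its change, so these differences are a description. The sources used here do not place these probe sets along the Klf6 transcript, and a difference between transcript forms was not tested.

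**Figure D2:**
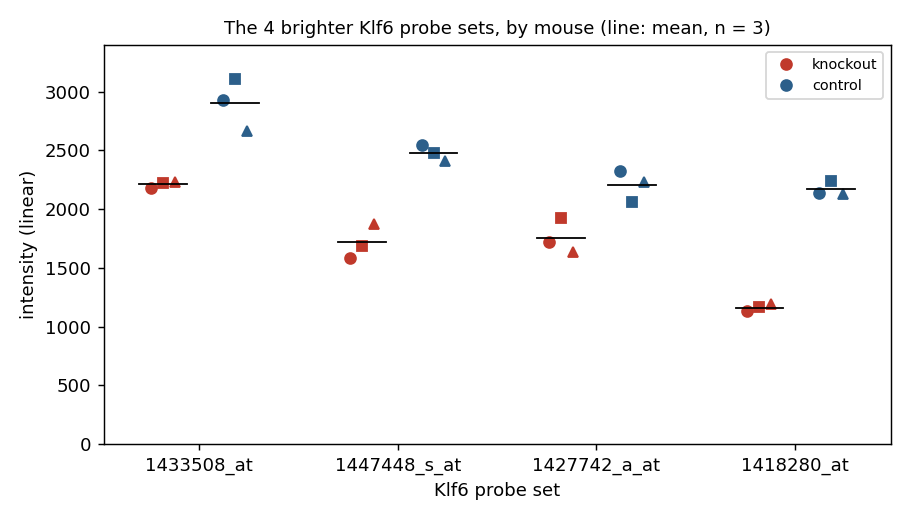
Linear intensity of the 4 brighter Klf6 probe sets in each mouse, knockout in red left of control in blue, with symbols for mice 1 (circle), 2 (square) and 3 (triangle) and a line at each mean of 3. The groups do not overlap in any of the 4, and the gap is widest in 1418280_at, with means of 1163 in the knockout and 2171 in the controls.

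Klf4, an activator known for monocyte differentiation and for pluripotency, was read by a pair of probe sets. The brighter, 1417394_at, had 1827, 1913 and 1838 in the knockout mice, against 2143, 2966 and 2945 in the control mice. The knockout mice agreed closely, and control mouse 1 lay nearest to them. The log2 change was -0.51 ± 0.15 (SE, adjusted p = 0.277). The other, 1417395_at, had 1395, 1656 and 1503 in the knockout mice, against 1965, 2182 and 2239 in the control mice, a change of -0.48, 95% interval -0.76 to -0.21 (adjusted p = 0.209). The groups did not overlap in either, and the knockout means were 0.693 and 0.713 times those of the controls.

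Klf2, which keeps T cells quiescent, responds to blood flow in endothelium and is known to contribute to embryonic globin expression in mouse primitive red cells, had 1 probe set. Its intensities were 2913, 3511 and 3552 in the knockout mice, against 3985, 4338 and 4707 in the control mice. The groups did not overlap, with 3552 in the highest knockout mouse and 3985 in the lowest control mouse. The means were 3325 ± 358 in the knockout and 4343 ± 361 in the controls (SD, n = 3). The change was -0.39 on the log2 scale, 95% interval -0.69 to -0.08 (adjusted p = 0.316).

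Klf7, best known from developing neurons, had 4 probe sets, all lower in the knockout by mean. The brightest, 1419356_at, had 486, 558 and 539 in the knockout mice, against 739, 743 and 678 in the control mice, with a change of -0.44 ± 0.10 log2 units (SE, limma adjusted p = 0.215). The groups were separate there and in 2 of the other 3. The changes of the other probe sets were -0.26, -0.20 and -0.15, with adjusted p between 0.422 and 0.608, so the extent of the difference varied with the probe set for this gene as well.

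Klf5, an activator of epithelial proliferation, had changes of -0.27, -0.32 and -0.34 in its 3 probe sets. The brightest had 418, 385 and 401 in the knockout mice, against 587, 479.8 and 414 in the control mice. The groups overlapped, since control mouse 3 lay below the highest knockout mouse (adjusted p = 0.497). Probe set 1451739_at had 110, 116 and 121 in the knockout mice, against 149, 168 and 130.4 in the control mice, without overlap (adjusted p = 0.359). The third was dim, with at most 15.3 in the knockout mice and 26.3 in the control mice.

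**Figure D3:**
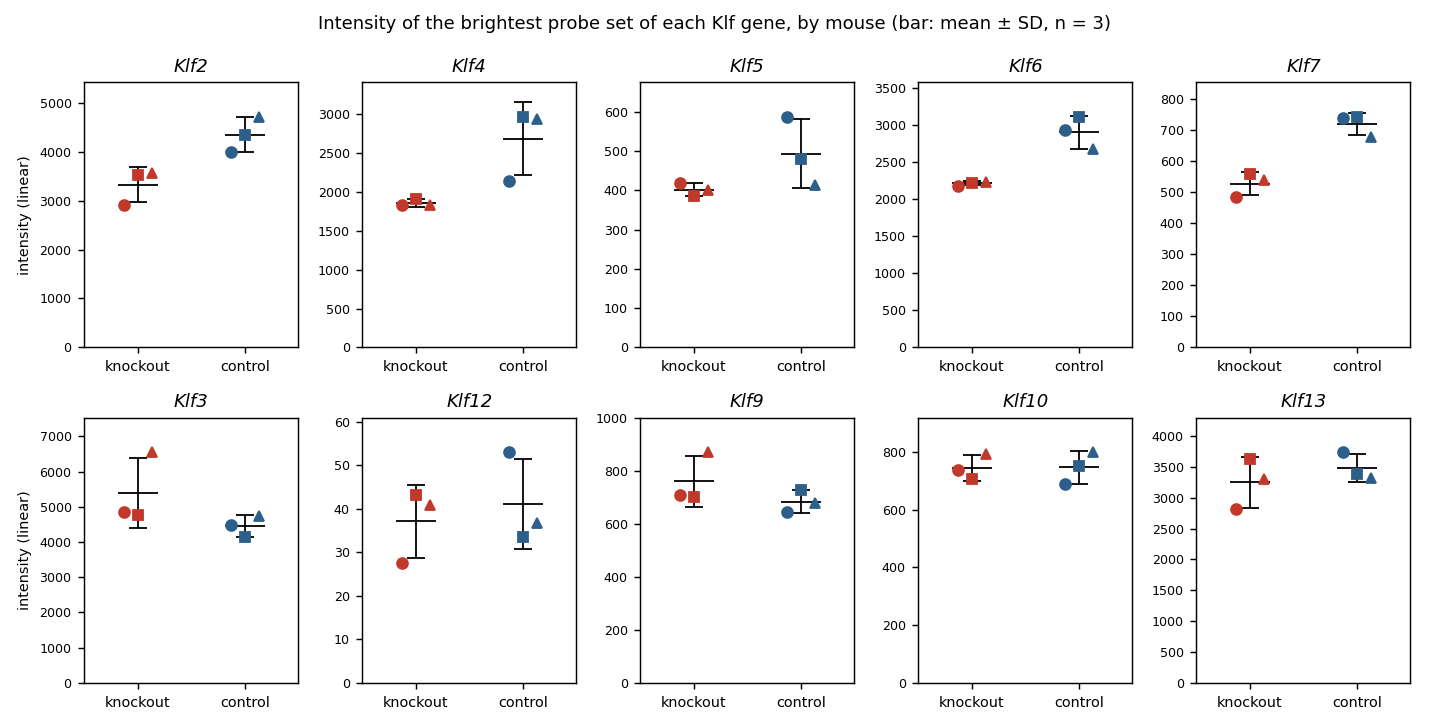
Linear intensity of the brightest probe set of each of the 10 genes, knockout left of control, 1 point per mouse with mean ± SD (n = 3), each panel on its own axis from 0. The knockout mice lie below all control mice for Klf2, Klf4, Klf6 and Klf7, and above them for Klf3, where knockout mouse 3 stands apart at 6550.2.

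Klf3, a repressor that Klf1 activates in erythroid cells and that competes for CACCC sites, had 7 probe sets with changes from 0.04 to 0.26. The brightest, 1454666_at, had 4853, 4779 and 6550.2 in the knockout mice, against 4498, 4133 and 4743 in the control mice. The groups did not overlap, but knockout mouse 3 carried most of the difference, and the means were 5394 ± 1002 in the knockout and 4458 ± 307 in the controls (SD, n = 3). The log2 change was 0.26, its 95% interval -0.11 to 0.63 (adjusted p = 0.541). In the other 6 probe sets the groups overlapped. Across the array, 10.6% of probe sets had every knockout mouse above every control mouse.

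Knockout mouse 3 gave the highest value of all 6 mice in all 7 Klf3 probe sets. Relative to the control mean it stood 0.24 to 0.66 higher on the log2 scale, whereas knockout mouse 1 stood between -0.19 and 0.12. Without knockout mouse 3 the 7 changes ran from -0.13 to 0.11, with 4 below 0 and 3 above. The direction thus turned without this mouse in 4 of 7 probe sets, and in the brightest the change without it was 0.11. It also turned without control mouse 2 in 2 of those 4, where the changes of the 7 ran from -0.02 to 0.21. In 1431630_a_at and 1441200_at these were -0.01 and -0.02, and the change of the first was also -0.02 after quantile normalization, as was that of the second with array weights. Without any 1 of the other 4 mice all 7 stayed above 0, from 0.15 to 0.33 without knockout mouse 1, from 0.03 to 0.34 without knockout mouse 2, from 0.0019 to 0.33 without control mouse 1 and from 0.05 to 0.31 without control mouse 3.

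**Figure D4:**
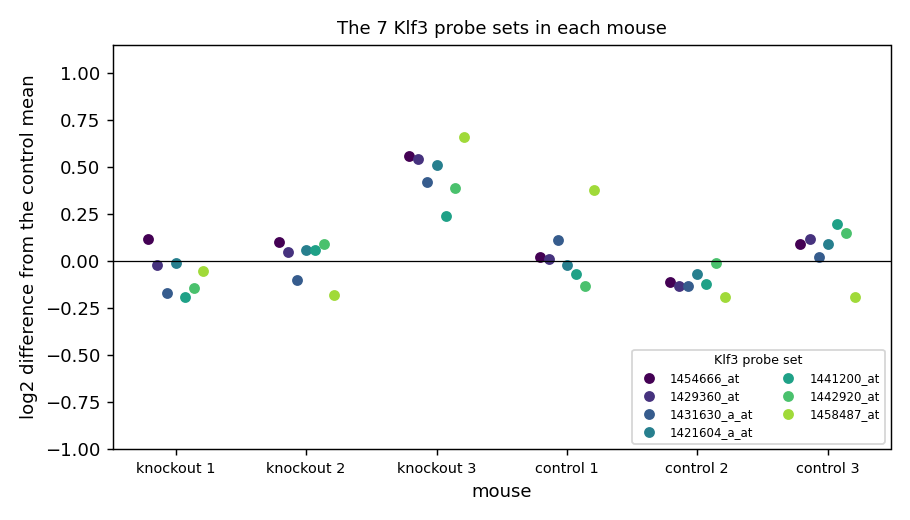
Log2 difference of each Klf3 probe set from its mean in the 3 control mice, by mouse, knockout mice left of control mice, 1 colour per probe set. In knockout mouse 3 all 7 points lie between 0.24 and 0.66, and in the other mice they scatter around 0.

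Klf12, the other CtBP-recruiting member, known as a repressor of the AP-2 alpha gene, was dim throughout. All 5 of its probe sets lay at or below percentile 39.6 of the array, and the brightest had 27.6, 43.1 and 40.8 in the knockout mice, against 53.0, 33.6 and 36.7 in the control mice. The groups overlapped in all 5, with log2 changes from -0.22 to 0.25. The table held no detection calls, so these levels cannot be told from background.

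Klf9, a repressor induced by glucocorticoids and thyroid hormone, had 7 probe sets, of which 5 lay above 0 and 2 below. The brightest, 1456341_a_at, had 711, 702 and 871 in the knockout mice, against 645, 729 and 681 in the control mice, a change of 0.14 on the log2 scale, 95% interval -0.16 to 0.44 (adjusted p = 0.689). Probe set 1428289_at had 307, 305 and 376 in the knockout mice, against 254, 309 and 256 in the control mice, a change of 0.26 ± 0.13 (SE, adjusted p = 0.495). The groups overlapped in all 7. The lowest change, -0.57, came from the dim probe set 1452723_at, where control mouse 1 had 75.0 and the other 2 control mice 30.0 and 31.1, against 12.6, 26.3 and 34.1 in the knockout mice. Knockout mouse 3 was the highest of all mice in 4 of the 7.

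Klf10, an early target of TGF-beta, had 1 probe set, with 736, 706 and 793 in the knockout mice, against 688, 753 and 799 in the control mice, and the ranges lay over each other. The log2 change was -0.0027, its 95% interval -0.26 to 0.26 (adjusted p = 0.996), so changes beyond 0.26 in either direction lay outside it.

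Klf13, which is known to activate human gamma globin in reporter assays and whose loss in mice impairs erythroid maturation, had 3 probe sets with changes of -0.10, -0.19 and -0.31. The brightest, 1436316_at, had 2814, 3624 and 3305 in the knockout mice, against 3734, 3384 and 3321 in the control mice, with overlap (adjusted p = 0.788). Probe set 1432543_a_at had 1538, 1603 and 1673 in the knockout mice, against 2024, 1685 and 1788 in the control mice, without overlap, and the 95% interval of its change ran from -0.45 to 0.08 (adjusted p = 0.545). The third was dim and its groups overlapped.

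For the 13 member probe sets whose groups did not overlap, 12 lower and 1 higher in the knockout, the two-sided exact permutation p was 0.1, the smallest that 3 against 3 mice allow, and 19.5% of all probe sets shared that feature. With the mean of all probe sets standing for each gene, the changes were -0.50 for Klf4, -0.49 for Klf6, -0.39 for Klf2, -0.31 for Klf5, -0.26 for Klf7, -0.20 for Klf13, -0.02 for Klf12, -0.0027 for Klf10, 0.04 for Klf9 and 0.14 for Klf3. In this separate limma fit, adjusted over the 18193 genes, none passed, and the lowest adjusted p was 0.0764 for Klf6. In this order the 95% intervals of neighbours overlapped throughout, from -0.78 to -0.22 for Klf4 at the lower end to -0.24 to 0.52 for Klf3 at the upper.

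Of the members' relatives, Klf1 had 6469, 7643 and 7861 in the knockout mice, against 5905, 3696 and 4596 in the control mice, 0.65 ± 0.19 log2 units higher (SE, limma adjusted p = 0.273), without overlap. Of the 6 measured Klf genes outside the 10 members none passed, with changes from -0.28 to 0.65. Of the 6, 2 lay below percentile 50 of the array, the dimmest at 0.139, and the change of -0.28 came from these. Klf11 and Klf16, the next by p after Klf1, had changes of 0.21 and 0.23. Of 7 measured Sp factors, which share the zinc finger type, none passed, and 3 lay below percentile 50, the dimmest at 12.8. Sp4 had 646 ± 39.7 in the knockout and 409 ± 46.3 in the controls (SD, n = 3), a change of 0.64 (adjusted p = 0.149), Sp3 had a change of 0.33 without overlap, and Sp7, the osteoblast factor, one of -0.21. Of 13 corepressors, coactivators and ubiquitin ligases known to act with Klf proteins, none passed. The acetyltransferases Kat2b and Ep300 had changes of 0.32 and 0.28, and Wwp1, a ligase known to target Klf2 and Klf5, had one of -0.32 (adjusted p = 0.347).

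Immediate early genes, the fast-response class that Klf2, Klf4, Klf6 and Klf10 also belong to, lay lower in the knockout alongside the activators. Of 17 measured, none passed over all probe sets. By sign, 16 lay below 0 and 1 above, with a median of -0.32 where that over all genes was -0.001, and in 12 every knockout mouse was below every control mouse, as in 9.23% of all genes. Fosb, an AP-1 subunit, had 135, 161 and 215 in the knockout mice, against 390.3, 509 and 451 in the control mice, a change of -1.34 ± 0.19 log2 units (SE, limma adjusted p = 0.0839). Jun, its usual partner, had a change of -0.61 (adjusted p = 0.237), and Zfp36, which destabilises cytokine mRNAs, one of -0.39 (adjusted p = 0.236). In this fit 9 of the 17 had an unadjusted p under 0.05, all of them lower in the knockout, as did 4.53% of all genes. With the trend and robust moderation 9 of the 17 fell, as did 0.605% of all genes. Whether cell handling differed between the groups was not tested, and no value in the table records it.

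Among 13 measured genes known as targets of member factors in some cell type, none passed, 10 lay below 0 and 3 above, and the median was -0.10. Cdkn1c and Cdkn1a, inhibitors of cyclin-dependent kinases, had changes of -0.67 (adjusted p = 0.274) and -0.30 (adjusted p = 0.352), without overlap. Cdkn1c was dim, at percentile 40.1, with means of 28.7 in the knockout and 54.7 in the controls. Bcl2l1, the survival factor Bcl-xL of erythroblasts, had a change of 0.37. In 3 of the 13 every knockout mouse lay below every control mouse and in 1 above. Of all genes, 9.23% and 12.3% did so. S1pr1, a Klf2 target in T cells, had 414, 601 and 531 in the knockout mice, against 505, 582 and 492 in the control mice, with overlap. Lgals3, which Klf3 is known to repress in mouse cells, had 6197 ± 223 in the knockout and 7068 ± 665 in the controls. Both of these were picked from the list for their tie to a member, after their values were seen. Of 8 glucocorticoid-induced genes, Klf9's class, none passed, and Sgk1, Errfi1 and Fkbp5 had changes of -0.39, 0.24 and -0.19. Of 8 TGF-beta early genes, Klf10's class, none passed and 7 lay below 0, with Tgif1 and Id3 at -0.33 and Ski at -0.23. Targets of Klf1 lay the other way. Of 16 measured, 1 rose, none fell and 15 did not pass, with a median of 0.45, and 11 had every knockout mouse above every control mouse, as in 12.3% of all genes. The gene that rose was Add2, a protein of the red cell skeleton, with a change of 1.67 (adjusted p = 0.0407), and the call was lost without any 1 of the 6 mice. Rhag and Epb42, also of the red cell membrane, had changes of 0.91 and 0.75 and did not pass. By this rule 0.209% of all genes rose and 0.0055% fell.

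**Figure D5:**
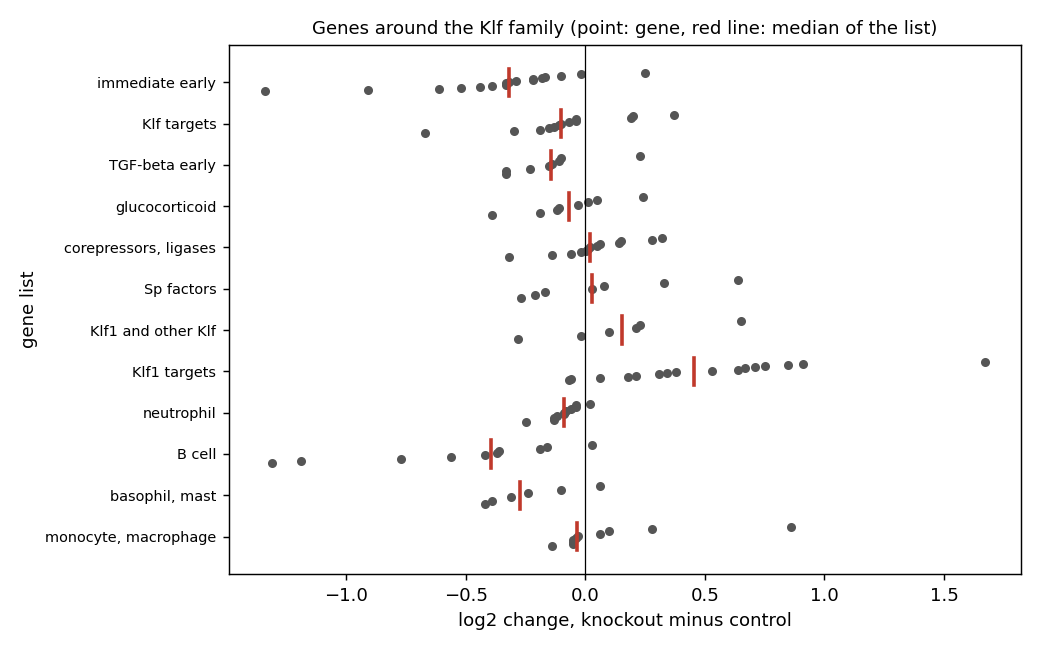
Log2 change, knockout minus control, of each gene (point, its brightest probe set) in 12 of the lists around the Klf family, with the list's median in red. Immediate early genes centre on -0.32 and Klf1 targets on 0.45, while the monocyte and macrophage markers centre on -0.04.

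The summed intensities of markers of some other blood cells lay lower in the knockout as well. Klf2 is known from B cells, and Klf4 and Klf6 from myeloid cells. Beside the lower Klf2, Klf4, Klf6 and Klf7, the summed intensity of 11 neutrophil markers was 183642 to 190327 in the knockout mice, against 198243 to 199847 in the control mice, with Ctsg, Ltf and Ngp, proteins of neutrophil granules, at changes of -0.25, -0.13 and -0.12. That of 10 B cell markers was 23502 to 31416 in the knockout mice, against 32720.5 to 44626 in the control mice, with Igll1 and Vpreb1 of the pre-B receptor at changes of -1.31 and -1.19 and Vpreb3 at -0.56. In those 3 genes every knockout mouse lay below every control mouse, and in the other 7 B cell markers the groups overlapped, with Ighm, the immunoglobulin mu chain, at -0.77, Pax5 at -0.19, Cd79b at -0.16 and Ms4a1 at 0.03. Ighm was the brightest of the 10, and without it the B cell sums overlapped, with 20030.5 in knockout mouse 2 and 19846 in control mouse 1. The last 4 genes were named after their values were seen. That of 6 basophil and mast cell markers was 4549 to 6151 in the knockout mice, against 6656 to 7059 in the control mice, with Mcpt8 at -0.42, Ms4a2 at -0.31 and Fcer1a at -0.39. Of these markers 10 of 11, 9 of 10 and 5 of 6 lay below 0, and none passed. The median changes were -0.09, -0.39 and -0.27, so the neutrophil difference was small. By limma, 0, 5 and 2 of them lay below 0 with an unadjusted p under 0.05, as did 4.53% of all genes. In 6 of 11, 3 of 10 and 2 of 6 every knockout mouse lay below every control mouse, as in 9.23% of all genes. The dimmest marker of each list lay at percentile 95.6, 63.0 and 45.7 of the array. The last of these, Cma1, was dim, with 54.8 in the knockout and 51.9 in the controls by mean. The part of these cells in the Klf changes was not tested, and in sorted bulk RNA fewer cells of a type and less RNA per cell cannot be told apart.

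The sums of 10 monocyte and macrophage markers, by contrast, were 43147 to 43818 in the knockout mice, against 42834 to 43409.6 in the control mice, and thus overlapped. By sign, 4 of the 10 lay above 0 and 6 below, with Csf1r at 0.28, Cd14 at 0.86 and Cd163 at -0.14. Cd14 had 1089, 1067 and 425 in the knockout mice, against 426, 433 and 431 in the control mice, so knockout mouse 3 did not share the rise. The sums of 7 T and NK cell markers were 4395 to 5108 in the knockout mice, against 5021 to 5765 in the control mice, with Il7r at -0.40, Klrd1 at -0.20 and Cd3e at 0.43. Those of 7 megakaryocyte markers were 1653 to 2737 in the knockout mice, against 1833 to 2289 in the control mice, with Gp5, Vwf and Pf4 at 0.42, 0.26 and -0.19. Gp5 was dim, at percentile 43.9. Knockout mouse 3 gave the top of the knockout range. Ppbp, another of these markers, had 79.0, 109 and 653 in the knockout mice, against 75.3, 165 and 229.9 in the control mice. The sums of 8 endothelial and stromal markers were 1503 to 1644 in the knockout mice, against 1178 to 1671 in the control mice, with Pecam1, Col1a2 and Kdr at -0.27, 0.34 and 0.26. The 10 measured erythroid markers, which bear on the label of the sort, summed to 102123 to 112005 in the knockout mice, against 76176 to 94060.4 in the control mice. By sign, 8 of the 10 lay above 0 and 2 below, with a median of 0.48. Rhag, Kel and Gata1 had changes of 0.91, 0.85 and 0.70. Alas2 and Epor, the 2 below 0, had changes of -0.06 and -0.14. In 7 of the 10 every knockout mouse lay above every control mouse, as in 12.3% of all genes. Klf1 itself was among these markers, and Rhag, Kel and others of them were also counted among the Klf1 targets. Hba-a1 was read by a dim probe set, at percentile 18.6, with means of 16.4 in the knockout and 13.7 in the controls. None of the genes on these 5 marker lists passed.

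Genes nearest in pattern across arrays were sought for Klf7 1419356_at, which had the smallest p when each member gene was represented by its brightest probe set. None of those 10 probe sets passed, and the Klf6 probe set that did is not the brightest of its gene. Of 10828 other genes in the brighter 50% of probe sets, Ldha, Osgin2 and Rcbtb1 followed it most closely over the 6 mice, with Pearson r of 0.9952, 0.9929 and 0.9914. Ldha, lactate dehydrogenase A, had 7764 in the knockout and 8561 in the controls by mean, a log2 change of -0.14. Osgin2 and Rcbtb1 had changes of -0.27 and -0.45. With 6 arrays and so many candidates such values of r describe the arrays only, and the points share the difference between groups.

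Bcl11a itself did not pass in any of its 7 probe sets, whose changes ran from -0.40 to 0.32. In 4 of them every knockout mouse lay below every control mouse, and in 2, with changes of 0.23 and 0.32, every knockout mouse lay above. Of all probe sets, 8.91% and 10.6% did so. The sources used here do not place them relative to the floxed part, so they do not check the genotype. The array medians lay between 67.5 and 70.9 and the upper quartiles between 331 and 337 in the 6 mice, and no array was a copy of another.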

How the data were processed

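Per the labels' protocols, Trizol-extracted RNA was turned into biotinylated cRNA for Affymetrix arrays, 1 per mouse. The authors deposited linear intensities per probe set. How probes were summarised, background-corrected and scaled was not stated in the sources used here. Between 775 and 874 values per array were exactly 1. Values became log2(intensity + 16), which understates changes of dim probe sets. Array medians and interquartile ranges differed by 0.057 and 0.070 log2 units, within the tolerance of 0.1, so arrays were not normalized again.

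Knockout was compared with control in limma 3.58.1 under R 4.3.3 (eBayes without trend, two-sided), adjusted by Benjamini-Hochberg over all 45037 probe sets. The fit was tested on simulated data. Standard errors and 95% intervals come from the fit. The platform annotation gave 1 symbol for 34945 probe sets, several for 932 and none for 9160, and 34741 matched RefSeq by Entrez ID. Except for the members, a gene stood for its brightest probe set. Genes without a single-symbol probe set were not analysed here. Named genes are all members, Bcl11a, Klf1, the 3 genes of smallest p and any that passed in each of 16 lists, and the 3 genes most like the member of smallest p when each gene is represented by its brightest probe set. Outside that rule, S1pr1, Lgals3, Ighm, Pax5, Cd79b, Ms4a1, Cma1, Hba-a1, Alas2, Epor and Ppbp were named after their values were seen. Members and lists were chosen with earlier results of these data known. Alternatives were 3 normalizations, pseudocounts of 1 and 64, the brightest 50%, array weights, an intensity trend with robust moderation, the mouse number as a replicate block, leaving out each mouse and the mean of a gene's probe sets. The fits of the brightest 50% and of gene means were adjusted over their own probe sets or genes. The number of mice limits the precision.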

Additional observations from a re-analysis of the deposited data

How the results depend on the processing

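The activator probe sets of Klf2, Klf4, Klf5, Klf6 and Klf7 kept a change below 0 under every alternative run. The count of member probe sets that fell, 1 as reported, was 0 with a pseudocount of 1, 2 with a pseudocount of 64, 4 in the brightest 50%, 7 with an intensity trend and robust moderation, 0 with the replicate block, and 0 to 0 when single mice were left out, while none rose under any of these. Over all probe sets, 63 rises and 3 falls became 38 and 0 with a pseudocount of 1, 508 and 50 with a pseudocount of 64, 708 and 145 in the brightest 50%, 1206 and 239 with the trend and robust moderation, and 14 and 0 with the replicate block; array weights gave 5 falls, and single mice left out gave 27 to 41 rises and 0 to 1 falls. The labels number the mice 1 to 3 in each group, but same-numbered mice did not deviate together (r = -0.035, -0.014 and -0.040), so the block has no pairing behind it; under it the Klf6 probe set 1418280_at had a change of -0.89 (adjusted p = 0.431).

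Sp factors had 1 rise with a pseudocount of 64, 1 in the brightest 50% and 2 with the trend and robust moderation. Immediate early genes had 1, 1 and 9 falls and B cell markers 2, 2 and 3 falls in the same 3 settings, and erythroid markers 2, 2 and 5 rises there and 1 with the mean of a gene's probe sets. With the trend and robust moderation 1 glucocorticoid-induced gene and 1 basophil or mast cell marker fell and 1 monocyte or macrophage marker rose. The 1 rise among Klf1 targets became 0 with quantile normalization, a pseudocount of 1 or the replicate block, 0 to 0 with single mice left out, 2 with the mean of a gene's probe sets, 5 with a pseudocount of 64, 5 in the brightest 50% and 10 with the trend and robust moderation. Calls rose across the array as well in the last 3 settings. With the trend and robust moderation 2.68% of all probe sets rose and 0.531% fell. With a pseudocount of 64, 508 of 45037 rose and 50 fell, and in the brightest 50%, 708 of 22518 rose and 145 fell. The share of all genes that rose in these settings was not computed.

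Signs turned only in probe sets of Klf3, Klf9, Klf10 and Klf12 with reported changes between -0.10 and 0.14. Klf3 1431630_a_at was -0.02 after quantile normalization and -0.13 to 0.16 with single mice left out, 1441200_at was -0.02 with array weights and -0.06 to 0.15, and 1442920_at and 1458487_at ran from -0.02 to 0.24 and from -0.12 to 0.33. Klf12 1439846_at ran from -0.19 to 0.04, 1439847_s_at was -0.0012 with a pseudocount of 64 and ran from -0.21 to 0.14, and 1422227_at was 0.0027 after median centring, 0.02 with array weights and ran from -0.09 to 0.09. Klf9 1422264_s_at was 0.01 after quantile, cyclic loess or median normalization and with array weights, and ran from -0.07 to 0.11. Klf10 was 0.02 after median centring and ran from -0.06 to 0.05. The causes were not tested.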
